A study of Mus musculus with 6 samples.

Results

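The class I peptide loading complex is the endoplasmic reticulum machinery that fits peptides into MHC class I molecules. Its genes were followed here in bone-marrow-derived dendritic cells with a Cre-mediated knockout of Hif2a (KO) and in their Cre-negative controls (WT). The members were taken by name: Tap1, Tap2, Tapbp, Tapbpl, Erap1, Calr, Canx and Pdia3. Each had 1 row in the deposited table, so 8 of its 30587 rows were members, and all 8 had enough reads to be among the 13249 rows tested.

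Peptides made by the proteasome in the cytosol enter the endoplasmic reticulum through TAP, a transporter built from the products of Tap1 and Tap2. There the aminopeptidase ERAP1 trims them, while the lectin chaperones calnexin (Canx) and calreticulin (Calr) and the disulfide isomerase ERp57 (Pdia3) fold the class I heavy chain and hold it ready. Tapasin (Tapbp) bridges the empty class I molecule to TAP and favours tightly bound peptides, and TAPBPR (Tapbpl), its relative, edits peptides outside the complex. Dendritic cells use this route to show antigens to CD8 T cells, and interferons are known to induce several of its genes.

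KO cells came from C57BL/6 mice carrying both a CD11c-Cre transgene and floxed Hif2a alleles, and WT cells from C57BL/6 mice carrying the floxed alleles alone (3 libraries each). Cre driven by the CD11c promoter recombines the alleles in cells that express this dendritic cell integrin, and the sources used here give no ages. Cells of both genotypes had spent 24 h in dimethyloxalylglycine (DMOG), an inhibitor of the hydroxylases through which oxygen destabilises HIF α subunits, and then 4 h with the glycolipid α-galactosylceramide. As all libraries had both treatments, neither their effect nor whether the difference between genotypes depends on them can be estimated. Nothing in the labels says whether libraries of a genotype came from separate mice or cultures. The spread behind the p-values is that between libraries, which may be technical.

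The values are read counts per gene, with 16826800 to 17884160 in all per KO library and 14668641 to 17041448 per WT library. Levels are given as CPM, read counts scaled to a common library size, and differences as KO over WT with ± the SE. Epas1, the official symbol of Hif2a, had 175, 214 and 198 reads in KO 1, 2 and 3, against 339, 352 and 349 reads in WT 1, 2 and 3 (log2 fold change -0.98 ± 0.12, edgeR adjusted p = 3.45e-05). Reads of Epas1 thus remained in KO libraries, and counts of the whole gene do not show which of them came from floxed exons. The dendritic cell markers Itgax, Flt3, Zbtb46, Cd74 and H2-Ab1 were present in every library, whereas Cd209a stayed under 0.6 CPM. Summed over 12 dendritic cell markers the level was 5480 to 6280 CPM in KO libraries and 6010 to 6060 CPM in WT libraries, with 4 of 11 tested markers higher and 3 lower in KO. Over 8 macrophage and monocyte markers it was 4130 to 4460 CPM in KO libraries and 3590 to 3800 CPM in WT libraries, with 4 higher and 0 lower in KO, among them Cd14 and Fcgr1. In bulk RNA, more cells of a type and more RNA per cell cannot be told apart, and the part of cell composition in the results below was not tested. Plasmacytoid dendritic cell markers summed to 320 to 328 CPM in KO libraries and 128 to 158 CPM in WT libraries, nearly all of it Bst2, which is also an interferon-stimulated gene. The other tested marker, Tcf4, rose as well (log2 fold change 0.45, edgeR adjusted p = 0.00409). Siglech, Ccr9 and Klk1 had at most 10 reads in any library. Markers of some rare cell types were also higher in KO. Neutrophil markers summed to 35.4 to 50.5 CPM in KO libraries and 29.2 to 39.5 CPM in WT libraries, with 2 of 4 tested higher and 0 lower. Mast cell and basophil markers summed to 9.09 to 12.1 CPM in KO libraries and 4.52 to 6.51 CPM in WT libraries, with 3 of 4 tested higher. NK cell markers summed to 14.1 to 16.3 CPM in KO libraries and 10.4 to 12.9 CPM in WT libraries. Nearly all of this was Klrk1, the 1 tested, which was higher. Klrb1c had 0, 4 and 0 reads in KO 1, 2 and 3, against 3, 6 and 5 in WT 1, 2 and 3. B cell markers summed to at most 4.1, T cell markers to 1.79 and erythroid markers to 0.783 CPM in any library.

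Libraries KO 1 and WT 2 stood apart in how many rows had a read, 22275 in KO 1 against 18763 and 19107 in KO 2 and KO 3, and 25408 in WT 2 against 19513 and 19253 in WT 1 and WT 3. Without both, 6 members rose and 0 fell, as with all libraries.

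Promoter sequences were at hand for 6 of the 8 members (RefSeq, GRCm38.p6, the build also called mm10), without Tap2 and Tapbpl. Of these, 4 are printed for the features they carry next to the expression values given further on. Positions count from the RefSeq gene start, where -1 is the base just before it. The first is the stretch between Tap1 and its divergent neighbour Psmb9, whose RefSeq starts have 225 bases between them (34187556 on the plus strand and 34187330 on the minus strand). In the GENCODE annotation used for coordinates elsewhere, Psmb9 extends to 34187764, past the start of Tap1, so there the stretch lies within Psmb9 (chr17:34187331-34187555, plus strand). Capitals mark CCAAT boxes (CCAAT on either strand, in 37.4% of 32851 promoters of 300 bases, from 250 before the start) and HIF core motifs (ACGTG or GCGTG on either strand, in 43.8%).
Tap1: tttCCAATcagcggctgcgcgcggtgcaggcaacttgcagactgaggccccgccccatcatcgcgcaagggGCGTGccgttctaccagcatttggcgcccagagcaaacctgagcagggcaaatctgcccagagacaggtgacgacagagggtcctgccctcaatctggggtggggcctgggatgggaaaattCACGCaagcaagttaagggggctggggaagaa

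Erap1 was the only one of the 6 with a match to the interferon-stimulated response element core in its window (GAAANNGAAA on either strand, in 3.44% of promoters). It lies across the RefSeq gene start, from -4 to 6, and is read on the opposite strand (chr13:74639803-74639862, plus strand). GENCODE starts Erap1 further upstream, at 74639568, so there the element lies within the span of the gene.
Erap1: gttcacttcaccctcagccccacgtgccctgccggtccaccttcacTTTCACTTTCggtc

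The lectin chaperone genes Calr and Canx each held a full endoplasmic reticulum stress element (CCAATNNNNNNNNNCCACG on either strand, in 0.119% of promoters, 39 of 32851), the element through which unfolded proteins in the endoplasmic reticulum are known to raise chaperone transcription. In Calr it spans -162 to -144 and is read on the opposite strand (chr8:84847052-84847111, minus strand). In Canx it spans -145 to -127 (chr11:50325784-50325853, minus strand). Capitals mark the element, which contains a CCAAT box by construction.
Calr: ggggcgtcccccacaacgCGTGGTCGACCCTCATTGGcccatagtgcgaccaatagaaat
Canx: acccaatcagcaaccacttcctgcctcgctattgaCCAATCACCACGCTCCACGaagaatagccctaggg
The windows of Tap1, Tapbp and Pdia3 held neither of these longer motifs, and HIF cores occurred in the windows of all 6 genes except Tapbp, overlapping the stress element in Calr and Canx. None of the 6 windows matched the GAS motif of interferon-γ-responsive genes (TTCNNNGAA, in 8.3% of promoters) or the κB motif searched (GGGANTTNCC on either strand, in 1.2%). A match of letters is not evidence of binding, and its absence from a window says nothing about the factor.

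RNA of the transporter, of tapasin and TAPBPR, of the trimming enzyme and of calreticulin was higher in KO cells, while calnexin and ERp57 did not pass the test. In all, 6 of 8 members rose and 0 fell at an adjusted p under 0.05, where 13.8% of the 13249 tested genes rose, 12.0% fell and 25.8% did either (edgeR, quasi-likelihood F test, p-values adjusted after Benjamini and Hochberg over all tested genes). Their median log2 fold change was 0.33, against -0.0093 over all tested genes. In the same 6 members the KO libraries all lay above the WT libraries, and in 1, Canx, they all lay below, where 20.5% and 20.0% of tested genes were separated in these ways. Reads of the 8 members together made up 0.309% to 0.332% of all counts in KO libraries and 0.248% to 0.258% in WT libraries.

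**Figure D1:**
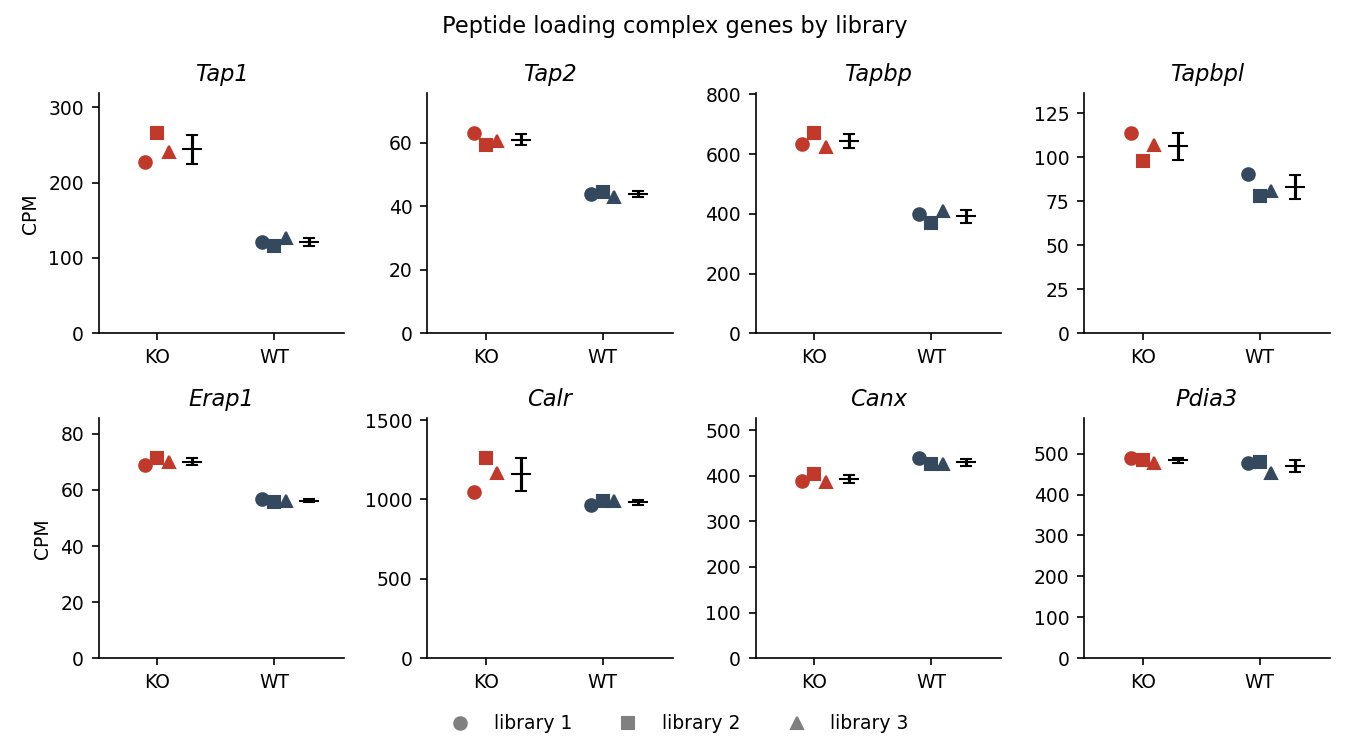
CPM of each of the 8 genes (vertical axes, from 0) in KO and WT libraries, 1 point per library with its shape giving the library number, beside the mean and SD of 3 libraries. KO and WT points are separate in every panel except Pdia3, and Canx is the gene whose KO points lie lower.

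Tap1 (ENSMUSG00000037321.17, chr17:34187553-34197225, plus strand), which encodes the first subunit of the peptide transporter, changed most of the members. It had 4138, 4476 and 4146 reads in KO 1, 2 and 3, against 2049, 1795 and 1850 reads in WT 1, 2 and 3. After scaling this was 227, 265 and 240 CPM in KO and 121, 116 and 126 CPM in WT, so the groups were far apart and KO 2 was the highest library. The mean was 244 ± 19.4 CPM in KO and 121 ± 4.97 CPM in WT (SD, n = 3 each), a 2.01-fold rise (log2 fold change 1.01 ± 0.07, edgeR adjusted p = 2.18e-07). Of all tested genes, 97.6% had a lower log2 fold change.

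Tap2 (ENSMUSG00000024339.12, chr17:34203527-34216321, plus strand), for the second subunit, rose less. It had 63, 59.4 and 60.7 CPM in KO 1, 2 and 3, against 44.1, 44.7 and 43 CPM in WT 1, 2 and 3. Replicates of either genotype differed little, and KO 2, the highest library for Tap1, was the lowest KO library for Tap2. The rise was 1.39-fold (log2 fold change 0.48 ± 0.06, edgeR adjusted p = 6.49e-05). A pair of antisense transcripts overlaps Tap2 exons, and each had at most 8 reads in any library.

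Tapbp (ENSMUSG00000024308.15, chr17:33915899-33929292, plus strand), encoding tapasin, showed the second largest rise. Its levels were 635, 669 and 624 CPM in KO 1, 2 and 3, against 400, 368 and 410 CPM in WT 1, 2 and 3. The mean was 642 ± 23.5 CPM in KO and 393 ± 21.8 CPM in WT (SD, n = 3 each), a 1.64-fold rise (log2 fold change 0.71 ± 0.06, edgeR adjusted p = 2.73e-06). Within its annotated span lies Zbtb22 on the same strand, with which it shares 149 exon bases, 4.11% of its exon length. The antisense transcript Gm19412, not analysed here, covers 24.9%.

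Tapbpl (ENSMUSG00000038213.7, chr6:125223933-125231860, minus strand), encoding the peptide editor TAPBPR, had 114, 98.1 and 107 CPM in KO 1, 2 and 3, against 90.8, 77.9 and 81.2 CPM in WT 1, 2 and 3. The groups did not overlap, but the replicates spread more than for most members, with a coefficient of variation of 7.33% in KO and 8.09% in WT. This was a 1.27-fold rise (log2 fold change 0.35 ± 0.07, edgeR adjusted p = 0.00269).

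Erap1 (ENSMUSG00000021583.7, chr13:74639568-74693201, plus strand), for the aminopeptidase that trims peptides to the length class I molecules hold, had the least spread of all members among WT libraries. Its levels were 68.8, 71.3 and 70.1 CPM in KO 1, 2 and 3, against 56.7, 55.7 and 56.1 CPM in WT 1, 2 and 3. The 1.25-fold rise (log2 fold change 0.32 ± 0.06, edgeR adjusted p = 0.000973) stood beside a coefficient of variation of 1.79% in KO and 0.815% in WT. At its end Erap1 shares 834 exon bases, 11.5% of its exon length, with Cast on the opposite strand. Cast, encoding the calpain inhibitor calpastatin, fell (log2 fold change -0.41 ± 0.06, edgeR adjusted p = 0.000236), and whether reads were counted by strand is not stated in the sources used here.

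Calr (ENSMUSG00000003814.8, chr8:84841850-84846934, minus strand), for the soluble lectin chaperone calreticulin, had 1048, 1260 and 1165 CPM in KO 1, 2 and 3, against 964, 989.2 and 989.6 CPM in WT 1, 2 and 3. KO libraries spread widely, with a coefficient of variation of 9.15% against 1.5% in WT. The 1.18-fold rise (log2 fold change 0.24 ± 0.06, edgeR adjusted p = 0.015) passed with all libraries. It did not pass when WT 1, KO 2 or KO 3 was left out, with log2 fold changes of 0.23, 0.18 and 0.24 (edgeR adjusted p up to 0.08), which brings the count of members that rose to 5.

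Canx (ENSMUSG00000020368.15, chr11:50293961-50325673, minus strand), for calnexin, the membrane-bound counterpart of calreticulin, had lower values in KO. They were 388, 403 and 387 CPM in KO 1, 2 and 3, against 438, 426 and 425 CPM in WT 1, 2 and 3. The groups were separate, but the log2 fold change of -0.13 ± 0.06 did not pass (edgeR adjusted p = 0.126), nor did it under any of the 15 alternatives, where it ran from -0.148 to -0.0976. Pdia3 (ENSMUSG00000027248.13, chr2:121413775-121438687, plus strand), for ERp57, had 489, 484 and 477 CPM in KO 1, 2 and 3, against 477, 480 and 453 CPM in WT 1, 2 and 3. The ranges overlapped, and the log2 fold change of 0.04 ± 0.06 did not pass (edgeR adjusted p = 0.66).

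**Figure D2:**
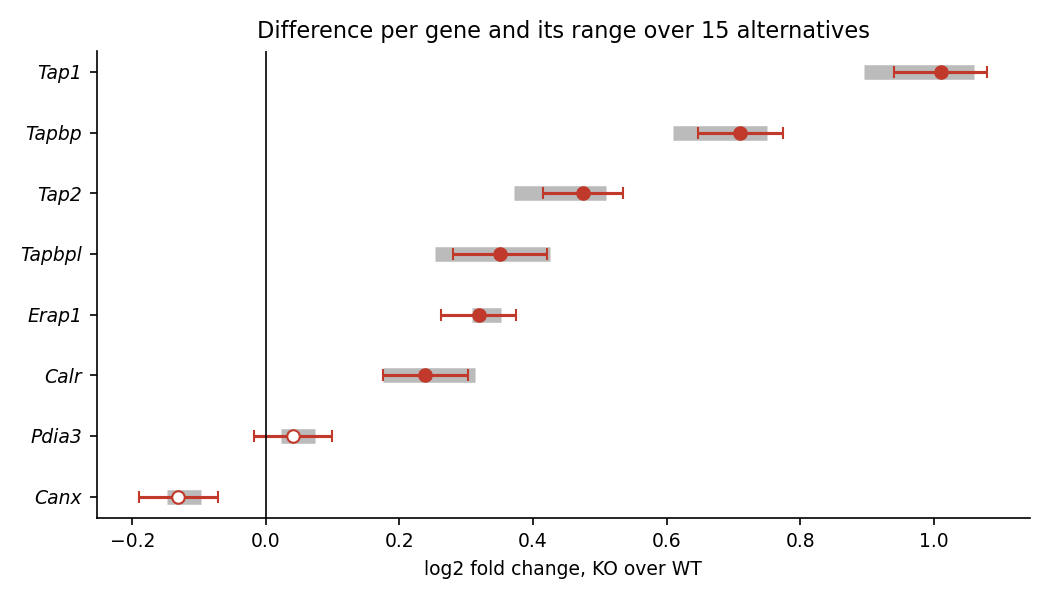
Log2 fold change of each gene, KO over WT (horizontal axis), as a point with its SE from 3 libraries per genotype. Filled points passed an adjusted p under 0.05, open points did not, and grey bars span the values under 15 alternative ways of processing. Tap1, Tapbp and Tap2 lie farthest to the right, and Canx is the gene left of 0 throughout.

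Levels can be set against each other only per length, here as CPM per kb of annotated exon. In KO cells the order ran from Calr (402 ± 36.8) over Tapbp (177 ± 6.47), Pdia3 (154 ± 1.85), Canx (83.7 ± 1.96), Tapbpl (45.2 ± 3.31), Tap1 (44.6 ± 3.54) and Tap2 (16.1 ± 0.479) to Erap1 (9.62 ± 0.173; SD, n = 3). Tapbpl and Tap1 differed there by less than their spread. In WT cells the order was Calr (341 ± 5.09), Pdia3 (149.7 ± 4.7), Tapbp (108 ± 6.01), Canx (91.6 ± 1.6), Tapbpl (35.4 ± 2.86), Tap1 (22.1 ± 0.907), Tap2 (11.6 ± 0.23) and Erap1 (7.72 ± 0.0629). Tapbp thus stood above Pdia3 in KO libraries and below it in WT libraries. With the length of the longest transcript in place of all exons, Tap1 stood above Tapbpl in KO cells (62.4 ± 4.96 against 45.2 ± 3.31 CPM per kb) but not in WT cells (31 ± 1.27 against 35.4 ± 2.86 CPM per kb). For scale, B2m, the light chain of every class I molecule, had 5960 ± 112 CPM per kb in KO cells and 5211 ± 296 CPM per kb in WT cells.

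KO libraries were not ordered alike for all members. KO 2 was the highest KO library for Tap1, Tapbp, Erap1, Calr and Canx, whereas KO 1 was the highest for Tap2, Tapbpl and Pdia3. KO 2 also had the highest summed level of 18 core interferon-stimulated genes, at 3205 CPM against 2634 CPM in KO 1 and 2637 CPM in KO 3, and 519 to 611 CPM in WT libraries.

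Ratios of reads between members of the same library do not depend on how libraries are scaled, and 4 were compared. For the transporter subunits the Tap1 to Tap2 ratio was 3.6, 4.46 and 3.96 in KO 1, 2 and 3, against 2.75, 2.6 and 2.94 in WT 1, 2 and 3. The ratio was 1.45-fold higher in KO, as Tap1 had the larger fold change of the subunits. Tapbp to Tapbpl was 5.59, 6.82 and 5.83 in KO, against 4.4, 4.73 and 5.05 in WT, 1.28-fold higher. The lectin chaperone ratio, Calr to Canx, was 2.7, 3.12 and 3.01 in KO, against 2.198, 2.32 and 2.33 in WT, 1.29-fold higher. Pdia3 to Tapbp, whose products are joined by a disulfide bond in the complex, was 0.77, 0.724 and 0.765 in KO, against 1.19, 1.304 and 1.1 in WT, with a log2 difference of -0.67. In each ratio all KO libraries lay on one side of all WT libraries, which gives p = 0.1 for every ratio and p = 0.1 after adjustment over the 4 (exact permutation test, two-sided), the smallest value that 3 against 3 libraries allow.

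**Figure D3:**
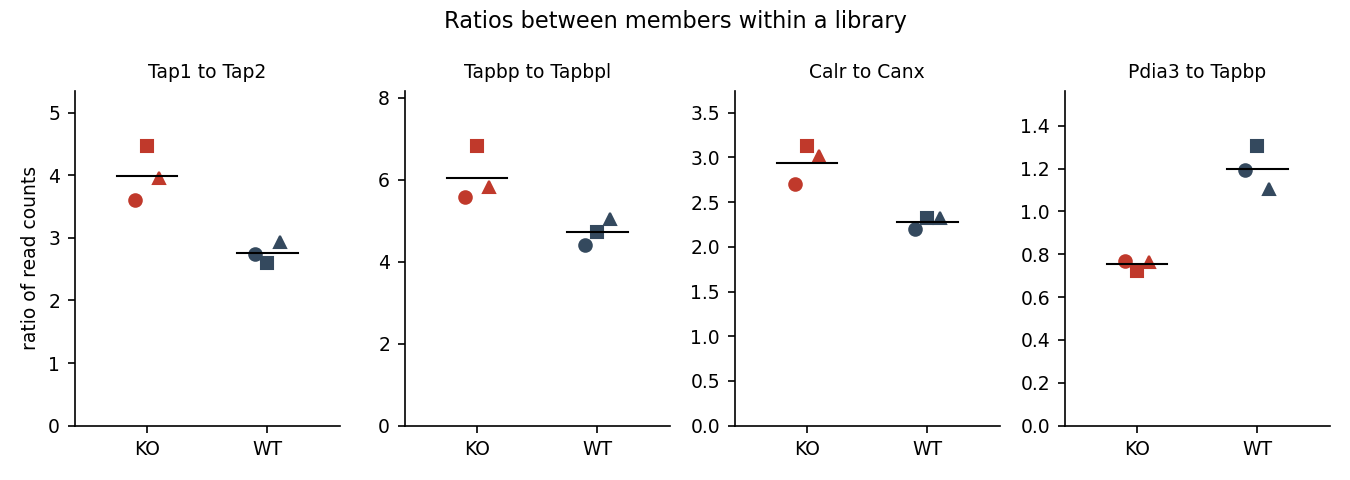
Ratio of read counts between 2 members within a library (vertical axes, from 0) in KO and WT libraries, with bars at the geometric means and shapes giving the library number as in the plot of CPM. The first 3 ratios are higher and Pdia3 to Tapbp is lower in every KO library.

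Position on the chromosome was not used to choose the members. Tap1, Tap2 and Tapbp lie in the MHC on chromosome 17, Tap1 and Tap2 with the immunoproteasome genes Psmb9 and Psmb8 between and beside them. Psmb9, whose RefSeq start lies beside the stretch printed above, had 122, 110 and 120 CPM in KO 1, 2 and 3, against 93.5, 102 and 89.4 CPM in WT 1, 2 and 3. The gene was 1.24-fold higher (log2 fold change 0.31 ± 0.06, edgeR adjusted p = 0.0034), against 2.01-fold for Tap1, with which it shares 212 exon bases on the opposite strand in GENCODE. Psmb8, between Tap1 and Tap2, was 1.24-fold higher as well (log2 fold change 0.31 ± 0.08, edgeR adjusted p = 0.0138).

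Within 100 kb of Tap1, 12 genes were tested, a window chosen after values were known. Of the 7 class II genes among them, 5 fell. H2-DMb2, encoding a chain of the class II peptide editor, fell most (log2 fold change -0.88 ± 0.08), and H2-DMb1 (-0.5 ± 0.06), H2-DMa (-0.23 ± 0.06), H2-Ab1 (-0.49 ± 0.05) and H2-Aa (-0.45 ± 0.05) fell too. Values for H2-Oa (-0.41 ± 0.17) and H2-Ob (-0.21 ± 0.27) did not pass, and Brd2, for a chromatin reader, rose (0.21 ± 0.06).

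**Figure D4:**
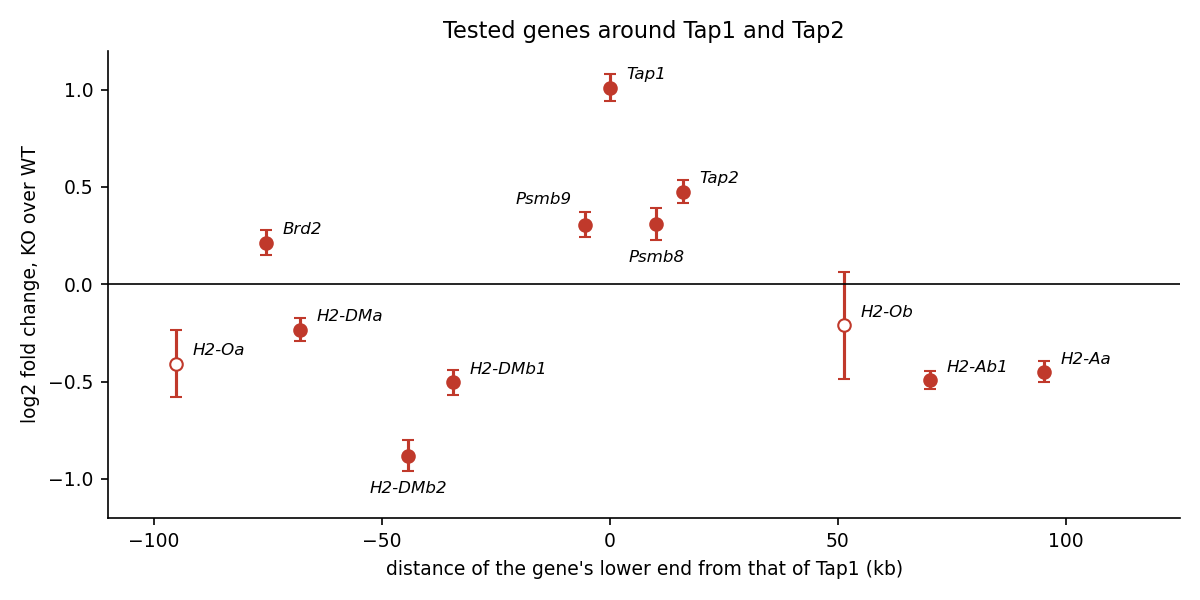
Log2 fold change with SE, KO over WT (vertical axis), of the 12 tested genes within 100 kb of Tap1 against distance along the chromosome in kb (horizontal axis). Filled points passed the test. The rise is seen in Psmb9, Tap1, Psmb8, Tap2 and Brd2, and the class II genes on both sides lie below 0.

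Among the other nearest tested genes, Daxx, which encodes a histone chaperone and ends 308 bases before Tapbp starts, rose (log2 fold change 1.19 ± 0.07, edgeR adjusted p = 6.36e-08), against 0.71 ± 0.06 for Tapbp. Zbtb22, inside the span of Tapbp, had a log2 fold change of 0.04 ± 0.06 (edgeR adjusted p = 0.724). Near Calr, Farsa, for a tRNA synthetase chain, rose by a log2 fold change of 0.25 ± 0.07 but did not pass without WT 2, WT 3 or KO 3. The neighbours of Canx (Maml1, 0.03, and Hnrnph1, 0.1), of Pdia3 (Catsper2, -0.2, and Serf2, -0.12) and of Tapbpl (Vamp1, -0.21, and Ltbr, 0.11) did not pass. Besides Cast, the neighbour of Erap1 was the predicted gene Gm46430, which fell (-0.57 ± 0.13).

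The complex loads class I heavy chains, and their genes were mostly higher. Of 11 tested, B2m included, 10 rose and 1 fell, with a median log2 fold change of 0.59 against -0.0093 over all tested genes. H2-K1, a classical heavy chain, had 2984, 2836 and 2887 CPM in KO 1, 2 and 3, against 1975, 1946 and 1847 CPM in WT 1, 2 and 3, a 1.51-fold rise. The non-classical genes H2-T22 and H2-T24 were 1.86-fold and 2.8-fold higher. B2m was 1.14-fold higher, a gene named with its values known. The gene that fell was Mr1 (log2 fold change -0.41 ± 0.1), which presents bacterial vitamin metabolites instead of peptides, and it did not pass when WT 1 or WT 3 was left out. H2 genes resemble each other closely, which makes their separate values uncertain.

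Peptide supply was divided. Of 6 genes of the immunoproteasome and its activator, 5 rose and 0 fell, by 1.35-fold for Psmb10, 1.3-fold for Psme1 and 1.24-fold for Psmb9. Psmb8 and Psme2 rose too, and Pomp, for an assembly factor, did not pass. Of 12 constitutive proteasome genes, 1 rose, the nuclear activator gene Psme3 (1.15-fold), which did not pass without WT 1, WT 2 or KO 3, and the list's median log2 fold change was 0.0462. Of 12 other peptidases that act on class I peptides, 1 rose and 1 fell. Without KO 1 or WT 3, 2 rose, and without KO 2, 2 fell. Rnpep, for an arginine aminopeptidase, was 1.31-fold higher, and Npepps, for the puromycin-sensitive aminopeptidase, was 1.18-fold lower.

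Transcription factors that act on class I genes were higher in 7 cases and lower in 0 of 15, with a median log2 fold change of 0.277. Stat2 and Irf9, which encode interferon-activated factors, were 4.14-fold and 2.33-fold higher. Nlrc5, the class I transactivator, chosen after its values were seen, had 48.3, 62.4 and 51.4 CPM in KO 1, 2 and 3, against 26.4, 30.6 and 29.3 CPM in WT 1, 2 and 3 (log2 fold change 0.91 ± 0.1, edgeR adjusted p = 1.54e-05). The partner factors Rfx5, Rfxap, Rfxank, Creb1, Nfya, Nfyb and Nfyc did not pass. All 18 core interferon-stimulated genes on the list rose, with a median log2 fold change of 2.96, among them Oasl2 (8.72-fold), Irgm1 (4.94-fold) and Irf7 (19.4-fold). Log2 fold changes ran from 0.465 to 4.55 in this list and from -0.131 to 1.01 in the peptide loading complex, and the part of the interferon response in the members' differences was not tested.

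Among the 399 tested genes with the interferon element core in the promoter window, 31.6% rose and 9.77% fell, against 14.9% and 11.4% of the 9697 tested genes with any promoter on file. Of the 15 tested genes with the full stress element, 3 rose (20.0%) and 2 fell (13.3%), Gm20560 and Xlr3b. Those shares are near the 14.9% and 11.4%, and the median log2 fold change of the 15 was -0.0965. Calr, Creld2 and Syvn1 were the ones that rose, and Calr and Creld2 did not pass when some single libraries were left out. Among the chaperone and isomerase genes with the element, Hspa5 (log2 fold change 0.119), Hsp90b1 (-0.158), Pdia6 (0.115), Dnajc3 (-0.0965) and Canx did not pass.

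The folding machinery that calreticulin, calnexin and ERp57 belong to was mixed. Of its genes, 8 of 16 in the lectin chaperone cycle did not pass. The same held for 12 of 16 in the disulfide isomerase family and 11 of 19 among other chaperones. Over all tested genes 13.8% rose, 12.0% fell and 25.8% did either, so most genes did not pass. Counts of 1 or 2 in lists of this size are near the shares that rose or fell. With all libraries, the 7 lectin cycle and 6 other chaperone genes that rose were above those shares. So were the 4 genes that fell in the isomerase family list, but these include the oxidase genes Ero1l and Ero1lb beside Tmx4 and P4hb. Isomerases without the oxidases were not set against the shares. Of 16 genes of the lectin chaperone cycle, 7 rose and 1 fell. Man1b1, for an endoplasmic reticulum mannosidase, was 2.16-fold higher, and Man1a, for a Golgi mannosidase, was the gene that fell (log2 fold change -0.21). Clgn, encoding the calnexin relative calmegin, was 1.38-fold higher and Os9, for a lectin of degradation, 1.17-fold higher. Clgn did not pass without KO 3. Os9 did not pass without WT 1, WT 2, KO 2 or KO 3, nor with offsets for GC content and length, where its log2 fold change was 0.139 against 0.226. The number that rose dropped to 2 without WT 1 or WT 2, to 3 without KO 2 and to 1 without KO 3, and 0 fell without KO 2, KO 3, WT 2 or WT 3. Of 16 genes of the disulfide isomerase family, 0 rose and 4 fell. Ero1l, for the oxidase that recharges these enzymes and a known hypoxia target, had 258 ± 17.5 CPM in KO and 606 ± 8.91 CPM in WT (SD, n = 3 each), 2.35-fold lower. Tmx4 was 1.47-fold lower and P4hb, for the founding isomerase, 1.24-fold lower (log2 fold change -0.32 ± 0.05), where Pdia3 did not pass, and the fourth gene that fell was Ero1lb (-0.22), the second oxidase.

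Other endoplasmic reticulum chaperones and stress genes numbered 19, of which 6 rose and 2 fell, with a median log2 fold change of 0.0789. Ddit3, for the stress factor CHOP, was 1.44-fold higher, Hyou1, for a chaperone, 1.43-fold and Creld2 1.23-fold, and those that fell were Sdf2 (-0.22) and Dnajb9 (-0.19). Creld2 did not pass without WT 3 or KO 3. The number that rose was 3 without WT 1, 2 without WT 3 and 3 without KO 3, and 0 fell without WT 1, WT 2, KO 2 or KO 3 and 1 without KO 1. Of 16 genes of class I export, translocation and cross-presentation, 2 rose (Wdfy4 and Sec61a1) and 4 fell, with a median log2 fold change of -0.104. Bcap29, for an export receptor of the endoplasmic reticulum, was 1.21-fold and Rab14, for an endosomal GTPase, 1.16-fold lower, and Abcb9, for a lysosomal peptide transporter related to TAP, fell as well (log2 fold change -0.57, edgeR adjusted p = 0.0491). Bcap29 did not pass without WT 1, nor Rab14 when libraries were scaled by total count alone or when KO 3, WT 2 or WT 3 was left out. Vamp8, for an endosomal fusion protein, had 4, 5.92 and 6.55 CPM in KO 1, 2 and 3, against 5.62, 46.1 and 11.4 CPM in WT 1, 2 and 3. WT 2 thus decided its log2 fold change of -1.93 ± 0.57, which was -0.619 without that library. Vamp8 did not pass without KO 3 or without WT 2, alone or with KO 1. It did not pass with the DESeq2 Wald test or limma-voom either. No gene of this list rose without WT 1, WT 2, KO 2 or KO 3, and 1 fell without KO 3 and 2 when any single WT library was left out.

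**Figure D5:**
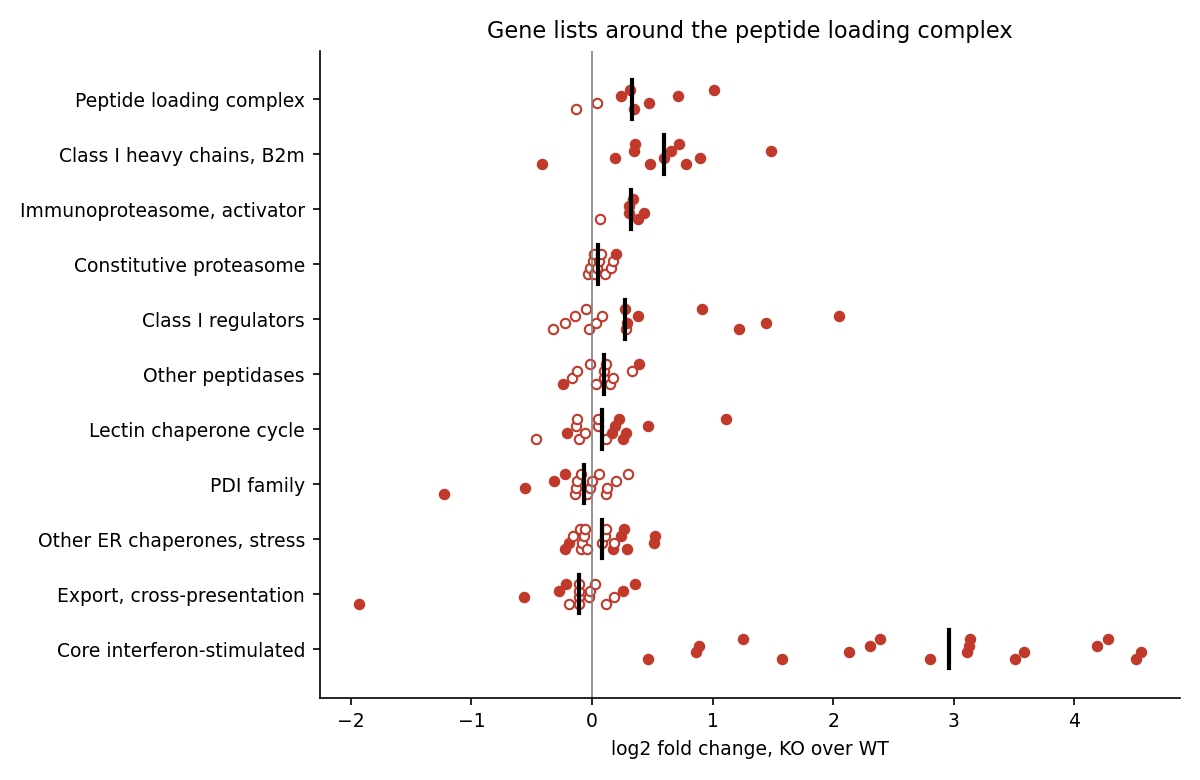
Log2 fold change, KO over WT (horizontal axis), of every tested gene of the peptide loading complex and of 10 gene lists around it (rows). Filled points passed the test, open points did not, and black bars mark the median of each list. Class I heavy chains other than Mr1 and the immunoproteasome lie to the right of 0, as the complex does except for Canx, the constitutive proteasome and folding lists lie around 0, and interferon-stimulated genes lie farthest right.

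For each member, the 2 genes whose pattern over the 6 libraries was most like it were taken from 8607 genes, by Euclidean distance between log2 CPM values relative to the WT mean. For Tap1 they were Lgals9, encoding galectin-9 (distance 0.0804), and Syn1. For Tapbp they were Trafd1, encoding a negative regulator of innate signalling (0.105), and Ogfr. For Tap2 they were Cycs, encoding cytochrome c (0.0247), and Ist1, and for Tapbpl they were Arc and Aif1l. Rhbdf2 and Por lay closest to Erap1, Rabgap1 and Ptpn12 to Canx, and Rxrb and Hsd17b11 to Pdia3, and Cyth4 was among the closest to Calr. Among the members themselves, Erap1 and Calr were most alike (0.214) and Tap1 and Canx least alike (1.98). As the measure is mostly set by the size of the difference between genotypes, it says little beyond that size.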

How the data were processed

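RNA of 6 libraries, 3 KO and 3 WT, was analysed from 1 table that the authors deposited, holding read counts without normalization. Per the submitters' processing notes, the build was mm10 and the tools named were TopHat2, HISAT2, HISAT, SAMtools, HTSeq and DESeq2. The sources used here do not state the annotation, the strand setting or how multiply aligned reads were handled. Rows were kept with filterByExpr at a minimum count of 10 (13249 of 30587), scaled by TMM and fitted in edgeR 4.0.16 (R 4.3.3) on genotype alone, with quasi-likelihood F tests and Benjamini-Hochberg adjustment over all tested rows. The SE is the log2 fold change divided by the square root of F. The common biological coefficient of variation was 8.48%. In 23 repeated symbols the row with most reads kept the name. Coordinates and exon lengths come from GENCODE M21, which matched 13045 tested rows, and promoters from RefSeq.

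The members, gene lists and tests were chosen with earlier results of these data known. Named were the members, Epas1, up to 3 called genes per list by lowest p, each member's nearest tested neighbours and its 2 most similar genes of mean log2 CPM of at least 3. Any other gene was named with its values known. Alternatives covered scaling, filtering, DESeq2 1.42.0, voom of limma 3.58.1, a replicate block, offsets for GC content and length, and left-out libraries. The procedure was tested on simulated data. Replicates differed beyond sampling noise (chi-square per degree of freedom of at least 4.1 in every pair). Some genes that this rule names are not reported here.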

Additional observations from a re-analysis of the deposited data

How the results depend on the processing

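The number of members that rose was 6 under each of the 9 alternatives that kept all libraries or dropped KO 1 with WT 2, the libraries with most rows that had a read, and 5 to 6 when 1 library was left out; 0 fell throughout. Over all genes, leaving out 1 library gave 1182 to 1992 higher and 945 to 1622 lower, against 1826 and 1586, the fewest without KO 3. Scaling to library size only shifted the median gene by 0.0334 on the log2 scale and left 62.3% of calls higher, against 53.5%, and offsets for GC content and length left 46.4%. Leaving out 1 library in turn moved log2 differences of ratios little: 0.453 to 0.607 for Tap1 to Tap2, 0.274 to 0.418 for Tapbp to Tapbpl, 0.322 to 0.427 for Calr to Canx and -0.728 to -0.609 for Pdia3 to Tapbp.

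Lists with few calls moved more. With 1 library left out, constitutive proteasome genes that rose were 0 to 1, class I heavy chains that fell 0 to 1, class I regulators that fell 0 to 1, other peptidases 1 to 2 higher and 1 to 2 lower, lectin cycle genes 1 to 6 higher and 0 to 1 lower, other chaperones 2 to 6 higher and 0 to 2 lower, and export genes 0 to 2 higher and 1 to 4 lower. With scaling to library size only, 2 constitutive proteasome genes and 2 isomerase genes rose, and 0 lectin cycle genes, 1 other chaperone and 2 export genes fell. With the GC and length offset, 2 constitutive proteasome, 4 lectin cycle and 0 export genes rose, and 1 regulator, 3 lectin cycle genes and 1 other chaperone fell, and the values of Zbtb22 (-0.0245) and Maml1 (-0.0837) changed sign, as did Maml1 without KO 2 (-0.00592 to 0.0635 over all fits that left out libraries). With no low-count filter 2 other peptidases rose and 1 other chaperone fell. With the DESeq2 Wald test 1 export gene rose, and 1 other chaperone and 2 export genes fell. With limma-voom 2 export genes fell. Without WT 2 and KO 1, 0 constitutive proteasome, 2 other peptidase and 3 lectin cycle genes rose and 0 other chaperones fell. The causes were not tested.

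Same-numbered libraries did not deviate together (correlations of -0.0229, -0.197 and 0.167 for numbers 1, 2 and 3 over 11299 genes), so the numbers were not taken as pairs. Among libraries of unlike number, correlations ran from -0.352 (KO 1 with WT 3) to 0.341 (KO 1 with WT 2). The cause was not tested. With the replicate block 1741 genes rose and 1506 fell, the ratio differences were 0.533, 0.36, 0.366 and -0.67, the 6 members that rose passed, and 1 other chaperone fell.

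Of the 66 genes named by rule, each under 15 alternatives, 942 of 990 values stayed on the same side of the threshold with the same sign, 44 no longer passed, 1 newly passed and 3 changed sign.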
